A study of Mus musculus with 21 samples.

Results

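The Ly49 receptors are a family of lectin-like proteins on the surface of mouse natural killer (NK) cells, encoded by the Klra genes. All 9 Ly49 genes that the family name selects in a deposited table of 11736 genes were followed here, with 2 activating members, Klra4 (Ly49D) and Klra8 (Ly49H), and 7 inhibitory members, Klra1 (Ly49A), Klra3 (Ly49C), Klra5 (Ly49E), Klra6 (Ly49F), Klra7 (Ly49G), Klra9 (Ly49I) and Klra10 (Ly49J). A further 3 rows of the family, Klra11-ps, Klra13-ps and Klra14-ps, are pseudogenes and are described beside the genes they resemble. The rule for the members uses only their names, and it was proposed with earlier results of these data known. Messenger RNA was sequenced from splenic NK cells that had been sorted and then kept in interleukin 15 (IL-15) at 50 ng/ml; IL-15 keeps NK cells alive. The groups were Cre only control cells (4 libraries, S16 to S19), cells with a conditional knockout of Ikzf1 (Ikzf1 KO, 4 libraries, S12 to S15), of Ikzf3 (Ikzf3 KO, 4 libraries, S1 to S4) or of both genes (DKO, 3 libraries, S5 to S7). Ikzf1 encodes Ikaros and Ikzf3 encodes Aiolos, zinc finger transcription factors of lymphocytes that repress or activate genes as parts of chromatin complexes. The labels describe NK cell conditional knockout mice and leave the Cre driver, the strain and the age of the mice unstated. The labels speak of biological replicates, and the p-values below measure the spread between these libraries.

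Inhibitory Ly49 receptors carry a tyrosine-based inhibitory motif (ITIM) in the cytoplasmic tail and, when they bind class I MHC molecules, recruit phosphatases that dampen the NK cell. Activating Ly49 receptors lack this motif and signal through the adaptor DAP12, which they hold by a charged residue in the membrane. Each NK cell expresses its own subset of the family, and the subset is acquired stepwise during maturation, so that a bulk level is a sum over cells with and without the receptor. Fewer cells expressing a receptor and less of its RNA per cell cannot be told apart in these data.

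The 12 Klra rows lie side by side on the minus strand of chromosome 6, from base 129898996 to 130386874 of the mouse genome build mm10, a span of 487.9 kb in the GENCODE annotation. Klra5 stands at one end (129898996 to 129917650), followed by Klra6 (130013033 to 130026954), Klra4 (130043731 to 130067271) and Klra8 (130115226 to 130129898). Klra9 (130178675 to 130193112), Klra7 (130218605 to 130233322), Klra10 (130269194 to 130281928), Klra3 (130323289 to 130337574) and Klra1 (130363917 to 130386874) complete the order. The start of the coding sequence separates the receptor types and is shown for the 7 members with the largest changes or levels. Each line gives the first 36 bases from the start codon, 5′ to 3′, with codon 8 in capitals, taken from the GENCODE transcripts.
Klra4 (Ly49D): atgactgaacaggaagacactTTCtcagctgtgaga
Klra8 (Ly49H): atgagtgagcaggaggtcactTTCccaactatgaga
Klra1 (Ly49A): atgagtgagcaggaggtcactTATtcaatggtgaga
Klra5 (Ly49E): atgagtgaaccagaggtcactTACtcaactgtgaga
Klra6 (Ly49F): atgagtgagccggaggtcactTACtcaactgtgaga
Klra7 (Ly49G): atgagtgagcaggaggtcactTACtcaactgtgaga
Klra9 (Ly49I): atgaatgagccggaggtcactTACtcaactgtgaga

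Codon 8 encoded tyrosine, the tyrosine of the ITIM, in all 7 inhibitory members (TAT in Klra1 and TAC in the other 6). In both activating members it was TTC, a phenylalanine codon. Counted from the A of the start codon, Klra4 and Klra8 shared the substitution A23T against Klra1, which no inhibitory member had. They also shared T24C, T29C and G30T against Klra1, as did the other 6 inhibitory members. Both activating members also had an arginine at residue 57, within the most hydrophobic window of 21 residues (45 to 65). No inhibitory member had an arginine or lysine in the centre of its own window. Outside these features the proteins were alike, with pairwise identities from 55.7% to 93.2% (median 66.55% over 36 pairs). The 93.2% belonged to Klra10 with Klra9 and Klra10 with Klra3.

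Such likeness limits what short reads can assign, since the libraries were read as single ends of 75 bases. In Klra8, 19.7% of the 75-base windows of its transcript occurred also in another gene, mostly in Klra14-ps (16%). The share was 14.4% in Klra10, 12.9% in Klra9, 7.0% in Klra7 and 6.8% in Klra3. It was 0.3% in Klra4 and in Klra1, and no window of Klra5 or Klra6 was shared. How the authors counted reads with several matches is not given in the sources used here. The annotation follows the reference strain, and reads of another Ly49 haplotype would match it less well.

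Values are RPKM, that is reads scaled to the length of the gene and the depth of the library, which allows levels to be compared between genes. Single-read steps in the values gave depths of 8.6 to 21.2 megareads per library. Klra10 rested on 5 to 57 reads per library, Klra6 on 31 to 679, Klra8 on 317 to 3729 and Klra4 on 1057 to 11674. The library labels were checked on the targeted genes. Ikzf1 fell from 61.9 ± 5.22 RPKM in Cre only cells to 19.1 ± 0.662 in Ikzf1 KO and 30.3 ± 7.12 in DKO cells (SD, n = 4, 4 and 3), and was 81.4 ± 6.34 in Ikzf3 KO cells (n = 4). Ikzf3 fell from 41.8 ± 3.68 to 17.8 ± 2.37 in Ikzf3 KO and 21.5 ± 1.964 in DKO cells, and was 48.3 ± 1.52 in Ikzf1 KO cells. Ikzf1 was higher in DKO than in Ikzf1 KO cells (limma, log2 0.63 ± 0.138, SE; adjusted p = 0.0119). For Ikzf3 in DKO against Ikzf3 KO cells the change did not pass (log2 0.27 ± 0.123; adjusted p = 0.127). RNA from outside the deleted part of a gene would still count towards these values. Several members divided the libraries of a group, S3 and S4 from S1 and S2 within Ikzf3 KO and S16 and S17 from S18 and S19 within Cre only. Results that rest on these libraries are given with and without them.

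In Cre only cells the activating Klra4 (469 ± 74.2 RPKM) and the inhibitory Klra7 (263 ± 23.4) were the most abundant members, followed by the activating Klra8 (190.2 ± 24.4; SD, n = 4 each). Klra9 followed at 82.1 ± 29.9, ahead of Klra3 (41.8 ± 1.35), Klra5 (40.1 ± 5.45) and Klra1 (36.7 ± 16.5), whose ranges overlapped one another. Klra6 (15.7 ± 5.93) and Klra10 (1.32 ± 0.337) were the lowest. Klra3 was the steadiest, from 40.7 to 43.8 RPKM in the 4 libraries. Klra1, Klra6 and Klra9 divided the control libraries instead. S16 and S17 held Klra1 at 24.8 and 20.4 RPKM against 49.6 and 52.1 in S18 and S19, and Klra9 at 60.6 and 52.9 against 114 and 101. Klra6 went the other way, with 22.3 and 19 RPKM in S16 and S17 against 11.2 and 10.1 in S18 and S19. Cd3e, a T cell receptor subunit, divided the same libraries, with 3.10 and 2.499 RPKM in S16 and S17 and 0.237 and 0.240 in S18 and S19. The part of this division in the Ly49 values was not tested.

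**Figure D1:**
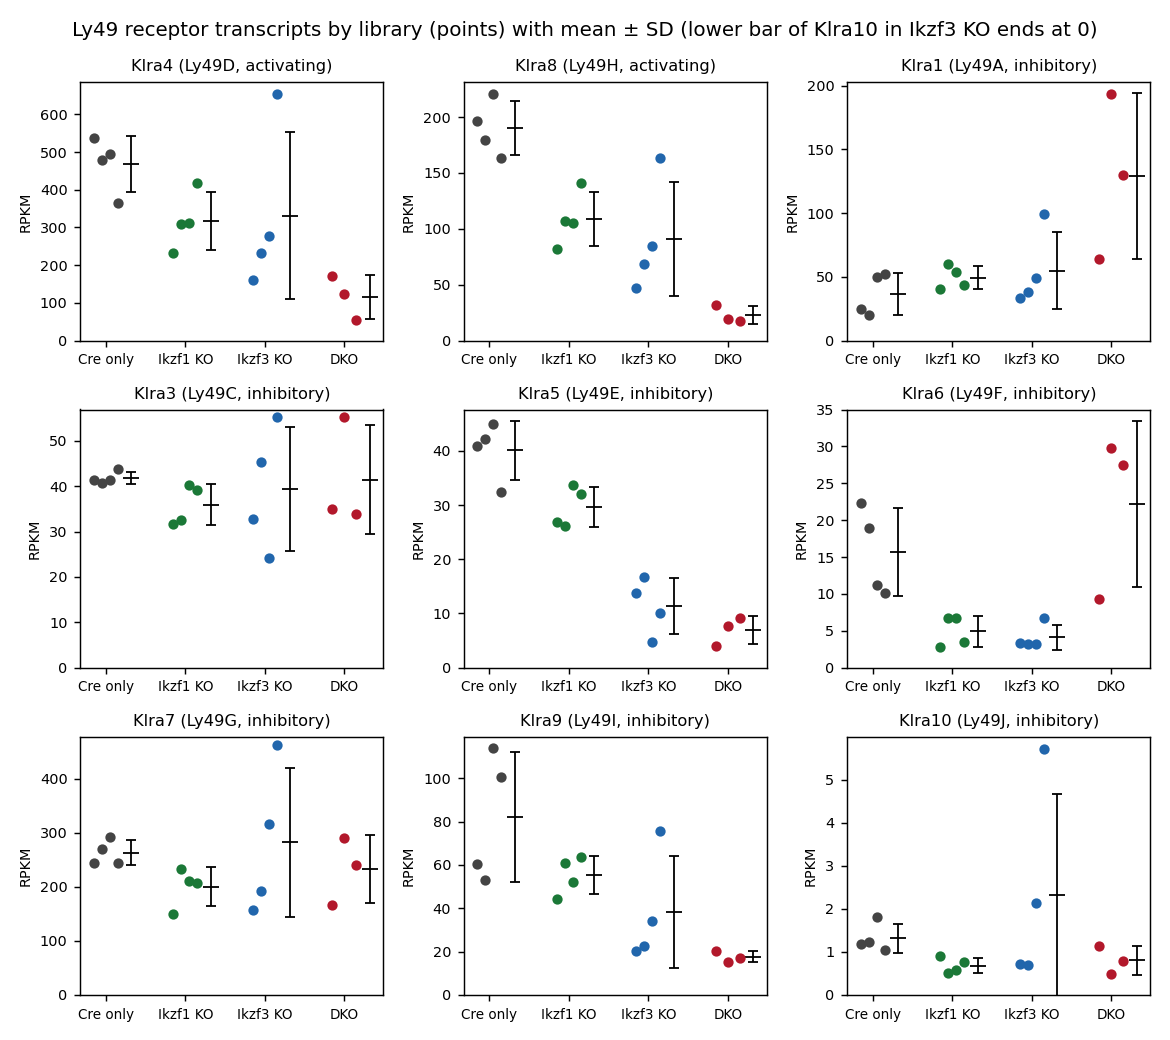
RPKM (linear axis from 0) of each Ly49 gene in every library of the 4 groups, with the mean and SD of the group as a bar beside the points. Klra8 in DKO cells lay between 17.4 and 32.0 RPKM, under all 4 Cre only libraries (164 to 221), whereas Klra1 in DKO cells (63.9 to 194) lay above them (20.4 to 52.1).

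Cells lacking both factors were compared with Cre only cells to see what the joint loss did to the receptors. Both activating receptors fell: Klra8 was 8.40-fold lower, the largest change among the 9 members, and Klra4 4.41-fold lower. The inhibitory Klra5 was 5.67-fold and Klra9 4.36-fold lower, while the inhibitory Klra1 was 3.42-fold higher. Klra3, Klra6, Klra7 and Klra10 did not pass the test. In all, 1 member rose and 4 fell among 9 tested (adjusted p below 0.05 over all genes), where 18.7% of all 10032 genes tested changed in either direction and 10.6% fell. The median change of the 9 members was -0.50 on the log2 scale, and that of all genes -0.00077. Fold changes are on the scale of RPKM + 0.5 and understate the change of low genes.

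Klra8 encodes the receptor that recognises the m157 protein of mouse cytomegalovirus. It measured 196, 179.7, 221 and 164 RPKM in S16 to S19 (Cre only) and 32.0, 19.2 and 17.4 in S5 to S7 (DKO). Every DKO library lay far below every control library. The log2 fold change was -3.07 ± 0.331 (SE; adjusted p = 2.08e-05). This call was kept in all 27 alternative settings, with log2 fold changes from -3.33 to -2.90.

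Klra4, the other activating receptor and a partner of DAP12, measured 538, 479.6, 495 and 364 RPKM in Cre only and 171, 123 and 54.8 in DKO libraries. The groups did not overlap, and the 3 DKO libraries spread over a wider range in proportion (coefficient of variation 50.2% against 15.8%). The log2 fold change was -2.14 ± 0.422 (SE; adjusted p = 2.93e-03), also kept in all 27 settings.

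Klra5 encodes an inhibitory receptor known from fetal NK cells. Its RPKM was 40.9, 42.1, 45 and 32.3 in Cre only and 4.03, 7.72 and 9.15 in DKO libraries, a log2 change of -2.503 ± 0.332 (SE; adjusted p = 1.16e-04). Klra9, an inhibitory receptor for class I MHC, measured 60.6, 52.9, 114 and 101 RPKM in Cre only libraries and 20.5, 15.3 and 17 in DKO libraries. It fell by 2.12 ± 0.377 on the log2 scale (SE; adjusted p = 1.37e-03). For both genes the groups were separate, and both calls were kept in all 27 settings.

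Klra1 encodes Ly49A, the classical inhibitory receptor for H-2Dd. It measured 24.8, 20.4, 49.6 and 52.1 RPKM in Cre only and 63.9, 194 and 129.6 in DKO libraries. The lowest DKO library, S5, lay only a little above the highest control. The log2 fold change was 1.77 ± 0.430 (SE; adjusted p = 0.0104). The call rested on single libraries: without S6 it was 1.41 (adjusted p = 0.0743), and without S16 and S17, the control libraries in which Klra1 was low, it was 1.20 (adjusted p = 0.125). Over all 27 settings the adjusted p ran from 7.68e-04 to 0.125 and the change stayed positive.

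The remaining 4 members showed no change that passed. Klra7, the most abundant inhibitory gene, measured 244, 271, 293 and 245 RPKM in Cre only and 167, 291 and 241 in DKO libraries (log2 -0.21 ± 0.306, SE; adjusted p = 0.693). The ranges overlapped. Klra3, an inhibitory receptor for H-2Kb, measured 35.0, 55.3 and 34.0 RPKM in DKO libraries around the control mean of 41.8 (log2 -0.05 ± 0.237; adjusted p = 0.912). Klra6 measured 9.32, 29.8 and 27.5 RPKM against 10.1 to 22.3 in Cre only cells (log2 0.40 ± 0.426; adjusted p = 0.564). Klra10 was near the limit of these libraries, with 14, 8 and 10 reads in the DKO libraries (log2 -0.50 ± 0.439; adjusted p = 0.479). An exact 95% Poisson interval for 8 reads runs from 3.5 to 15.8 and covers counting error only. Counted without a test, 5 of 9 members (Klra1, Klra4, Klra5, Klra8 and Klra9) had DKO and Cre only libraries that did not overlap, against 35% of all genes tested.

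Of the pseudogenes, Klra14-ps fell from 47.3 ± 6.97 to 16.2 ± 2.8 RPKM (SD, n = 4 and 3; log2 -1.52 ± 0.311, SE; adjusted p = 0.00381). Klra11-ps fell from 1.92 ± 0.538 to 0.279 ± 0.242 RPKM (log2 -1.67 ± 0.318; adjusted p = 0.00238), on at most 7 reads in the DKO libraries. Klra13-ps was at 51.4 ± 4.45 and 41.8 ± 4.98 RPKM (log2 -0.30 ± 0.353; adjusted p = 0.610). Reads of Klra14-ps and Klra8 can be exchanged over the windows they share.

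**Figure D2:**
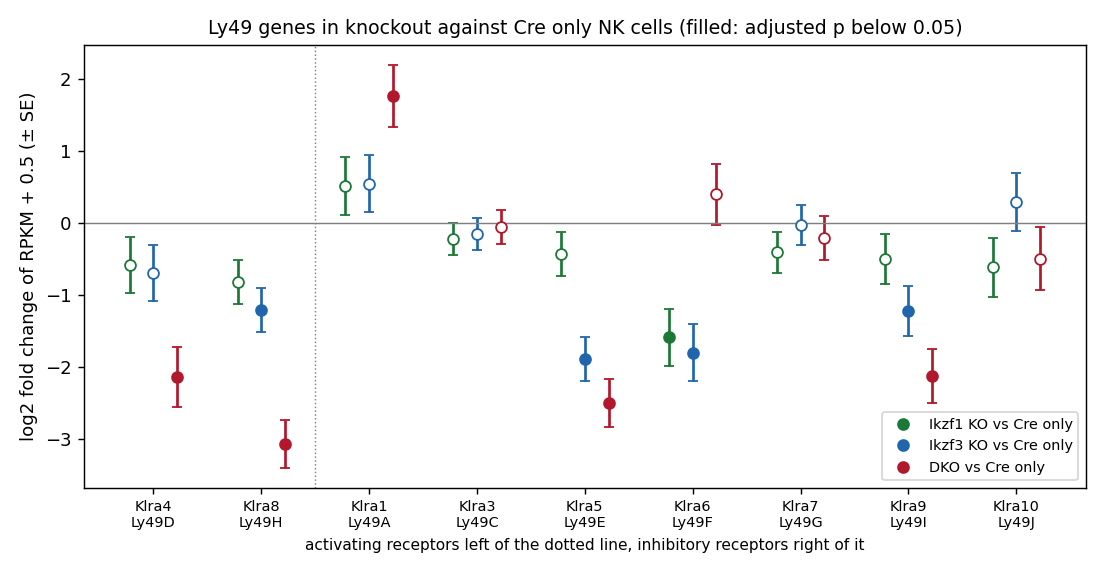
Log2 fold change of RPKM + 0.5 with its SE for each Ly49 gene in Ikzf1 KO, Ikzf3 KO and DKO cells against the same 4 Cre only libraries; filled points have an adjusted p below 0.05. In DKO cells both activating genes lie low (-2.14 and -3.07), and among the inhibitory genes Klra5 and Klra9 lie low, Klra1 high (1.77) and the others near 0.

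With the receptors weighed together, the 9 genes summed to 1140 ± 108.7 RPKM in Cre only cells and to 590 ± 126.3 in DKO cells (SD, n = 4 and 3). The 2 activating genes fell from 659.4 ± 93.2 to 139.1 ± 65.4 RPKM, and the 7 inhibitory genes stood at 480.8 ± 54.4 and 450.9 ± 146.1. The activating share of the sum was thus 62.8%, 59.6%, 56.3% and 52.1% in the control libraries and 40.3%, 19.4% and 13.6% in S5, S6 and S7. Among the DKO libraries S5 kept the most activating transcript and had the least Klra1. Klra1 made up 12.68% of the family in S5, 26.33% in S6 and 24.39% in S7, and 1.84% to 5.14% in Cre only libraries. These sums describe the libraries and carry no test.

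**Figure D3:**
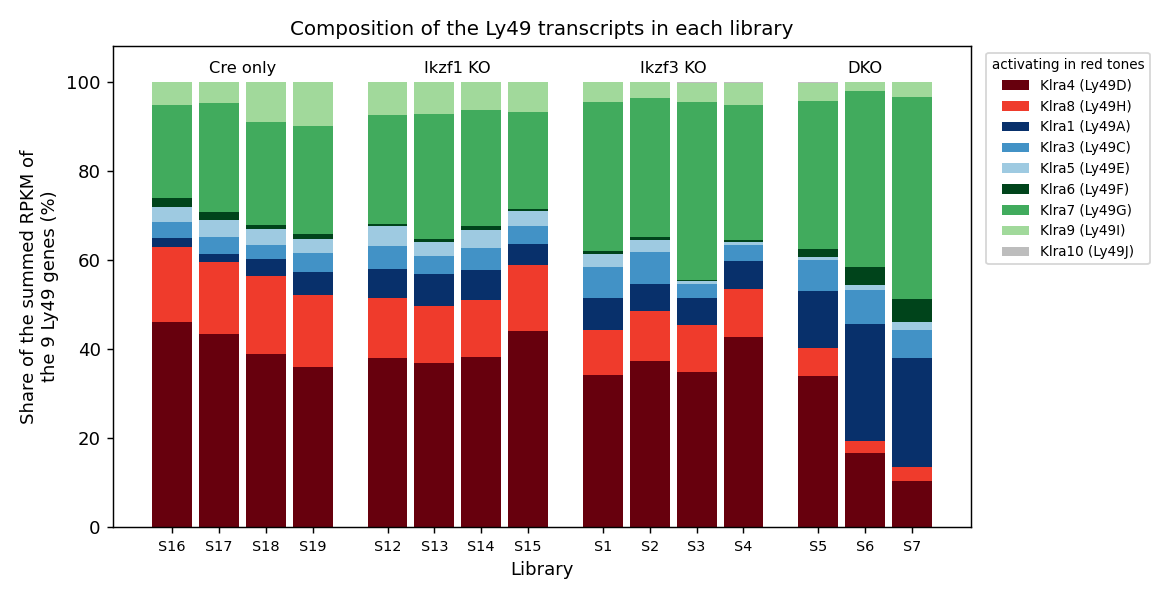
Share of each Ly49 gene in the summed RPKM of the 9 genes, one stacked bar per library, activating genes in red tones at the bottom. The red part takes 52.1% to 62.8% of the bar in Cre only libraries and 13.6% to 40.3% in DKO libraries, and the dark blue part (Klra1) is widest in S6 and S7.

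The NK preparation itself was read through markers of other cells. Among all genes, 18.7% changed in DKO against Cre only cells. In DKO against Cre only cells 6 of 10 T cell markers tested rose and none fell, among them Cd3e (37.3 ± 10.9 against 1.52 ± 1.5 RPKM; SD, n = 3 and 4) and Trac (127.6 ± 54.2 against 17.95 ± 8.13). The 13 T cell markers in the table summed to 843.9 to 1725.4 RPKM in DKO and 472.3 to 711.7 in Cre only libraries. S6, the DKO library with the most Klra1, also had the most Trac (184.6 RPKM), and S5 the least of both (76.8 RPKM of Trac). Cd3e was highest in S7 (44.8 RPKM, 42.4 in S6). In Ikzf1 KO libraries S13 had the most Klra1 and the most Trac (14.1 RPKM). The other groups went the other way. S16 and S17 had less Klra1 and more Trac (26.2 and 23.3 RPKM) than S18 and S19 (13.3 and 9.03). In Ikzf3 KO, S4 had the most Klra1 and the least Trac (8.55 RPKM). Of 9 markers of type 1 innate lymphoid cells 6 rose (summed RPKM 579.2 to 806.7 against 168.9 to 427.1). Of 7 B cell markers only Cd79b had a row, at 0.5 to 2.2 RPKM in DKO and 0.2 to 0.5 in Cre only libraries, and it rose (log2 1.18 ± 0.283, SE; adjusted p = 0.00988). Of 3 myeloid markers tested Ccr2 and Cd14 rose and Cd68 fell (5 in the table, 217.5 to 252.7 against 152.1 to 188.2 RPKM). The part of these markers in the Ly49 values was not tested.

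Among the NK identity markers, the receptor genes Ncr1, Klrb1c and Klrk1 did not fall with Klra8 and Klra4, while Cd244a fell. Ncr1 (NKp46) was 201.4 ± 29.4 RPKM in DKO and 146.7 ± 38.1 in Cre only cells (log2 0.48 ± 0.257, SE; adjusted p = 0.213). Klrb1c (NK1.1) changed by -0.06 ± 0.255 (adjusted p = 0.903) and Klrk1 (NKG2D) by 0.45 ± 0.219 (adjusted p = 0.176). Set against Ncr1 in the same library, Klra8 stood at 1.05 to 2.08 RPKM per RPKM of Ncr1 in Cre only and 0.0818 to 0.173 in DKO libraries, and Klra4 at 2.81 to 4.67 and 0.298 to 0.925. For both activating genes the groups did not overlap per unit of Ncr1, as in RPKM. The same held for Klra5 and Klra9. Klra1 overlapped per unit of Ncr1, at 0.119 to 0.468 in Cre only and 0.346 to 0.823 in DKO libraries. The part of NK cell content in the Ly49 values was not tested. Of 12 NK markers 5 fell and none rose, where 10.6% of all genes fell. The falls were led by the cytotoxic genes Prf1 and Gzma (log2 -4.60 ± 0.569 and -1.95 ± 0.312, SE, adjusted p = 6.72e-05 and 5.87e-04). The log2 change of Cd244a was -1.10 ± 0.181 (adjusted p = 7.34e-04).

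Maturation markers moved too, and Ly49 receptors are acquired during maturation. Of 8 mature NK markers tested 4 fell, among them Itgam, the CD11b chain (log2 -3.53 ± 0.282; adjusted p = 1.33e-06), and 1 rose, the protease gene Cma1. Of 11 immature markers 5 rose and 2 fell, where 18.7% of all genes changed and 10.6% fell. The summed mature markers ran from 1639.8 to 4178.0 RPKM in DKO and from 9724.1 to 11984.6 in Cre only libraries. The part of maturation stage in the Ly49 values was not tested.

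Loss of Ikaros alone gave 1 call in the family. In Ikzf1 KO against Cre only cells 1 of 9 members fell and none rose, where 6.32% of all genes changed. The number called was 5 when only these groups were fitted and 6 with array weights, by which more variable libraries count for less. Calls over all genes also rose in these settings, from 634 of 10032 to 1927 of 9527 and 3746 of 10032. The 9 genes summed to 610.4 to 946.6 RPKM, below every Cre only library (1013.1 to 1271.6). The median of the members was -0.50 on the log2 scale and that of all genes -0.0058. Klra6 passed, with 2.79, 6.73, 6.78 and 3.43 RPKM against 22.3, 19, 11.2 and 10.1 in Cre only libraries. All 4 knockout libraries lay below all 4 controls (log2 -1.59 ± 0.394, SE; adjusted p = 0.0265). This call was lost when any of S12, S15, S16 or S17 was left out (adjusted p = 0.0965, 0.0703, 0.0845 and 0.0812) and without S16 and S17 together, where the change was -1.13 (adjusted p = 0.279). Over all settings its adjusted p ran from 8.41e-04 to 0.279.

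Neither activating gene passed in Ikzf1 KO cells with all 15 libraries fitted. Klra8 measured 82.0, 107, 105 and 141 RPKM, each below the lowest control (164), with a change of -0.82 ± 0.306 on the log2 scale (SE; adjusted p = 0.140). This change passed in 5 of 27 settings: only these groups fitted, array weights, a term for the set S5, S15, S18 and S19, without S4, and without S3 and S4 (adjusted p from 2.80e-04 to 0.386 over all). Klra4 measured 232, 309, 311 and 417 RPKM against 364 to 538 (log2 -0.58 ± 0.390; adjusted p = 0.480), and passed as lower in 2 settings, only these groups fitted and array weights (adjusted p from 0.00299 to 0.825 over all). Klra7, at 149.8 to 234 RPKM, also lay under all controls without passing (log2 -0.41 ± 0.283; adjusted p = 0.502), as did Klra3 and Klra10 by narrow margins. Separate ranges were not counted over all genes in this comparison, so how common they are here is not known. Klra1, Klra3, Klra5, Klra9 and Klra10 had log2 changes between -0.62 and 0.52. The activating share of the family was 49.8% to 58.9%, which overlapped the controls.

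Loss of Aiolos alone was compared with the same controls. In Ikzf3 KO against Cre only cells 4 of 9 fell and none rose, where 14.2% of all genes changed and 7.88% fell. The number called was 2 when only these groups were fitted and 5 with array weights, so the order of the counts in the single knockouts depended on the fit. Calls over all genes moved as well in these settings, from 1423 of 10032 to 431 of 9631 and 2201 of 10032. The median was -0.70 for the members and -0.016 for all genes on the log2 scale. Klra5 fell most: it measured 13.7, 16.7, 4.83 and 10.1 RPKM against 32.3 to 45 in Cre only libraries (log2 -1.89 ± 0.307, SE; adjusted p = 0.00165). S3 and S4 held the least, the reverse of what most other members showed. This call was kept in all 26 settings.

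Klra6 measured 3.32, 3.16, 3.20 and 6.72 RPKM in Ikzf3 KO cells, all below the controls (10.1 to 22.3; log2 -1.804 ± 0.394, SE; adjusted p = 0.00944). Klra8 measured 47.3, 68.1, 84.5 and 164 RPKM, with S4 barely under the lowest control (log2 -1.20 ± 0.306; adjusted p = 0.0199). Klra9 measured 20.3, 22.3, 33.9 and 75.9 RPKM, and here S4 reached into the control range (log2 -1.23 ± 0.349; adjusted p = 0.0326). These calls were less firm than that of Klra5. Without S16 and S17 the change of Klra6 was -1.35 (adjusted p = 0.107) and that of Klra8 -1.21 (adjusted p = 0.0971). Klra8 was also lost without S18 (adjusted p = 0.0570), and Klra9 without S2, S3, S18 or S19 (adjusted p = 0.0520, 0.0651, 0.0937 and 0.0818). Without S18 and S19 together Klra9 changed by -0.77 (adjusted p = 0.266). The adjusted p ran over all settings from 0.00109 to 0.107 for Klra6, from 5.15e-05 to 0.0971 for Klra8 and from 2.85e-04 to 0.266 for Klra9.

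The Ikzf3 KO libraries differed from one another more than those of any other group in the level of the family. The 9 genes summed to 469.1, 618.5, 795.5 and 1533.6 RPKM in S1 to S4. Klra4 alone ran from 161 to 655 RPKM, a span that took in all 4 controls, and its log2 change of -0.70 ± 0.390 (SE) did not pass (adjusted p = 0.22). Without S3 and S4 it passed as lower. Klra7 ran from 157 to 462 RPKM (log2 -0.02 ± 0.283; adjusted p = 0.961). Klra10, at 0.716, 0.692, 2.12 and 5.71 RPKM, was highest in S4 as well. The Klra8 share of the sum held steadier, at 10.08%, 11.02%, 10.62% and 10.67% in S1 to S4. It lay under every Cre only library (16.17% to 17.37%) and every Ikzf1 KO library (12.82% to 14.86%). In DKO libraries the Klra8 share was 2.62% to 6.36%. Other shares divided the Ikzf3 KO libraries: Klra5 had 2.93% and 2.7% in S1 and S2 against 0.61% and 0.66% in S3 and S4. For Klra3 the shares were 7.0% and 7.33% against 3.04% and 3.6%. Other NK receptors were high in S4 too, Klrb1c with 270.3 RPKM against 100.3, 118.0 and 162.2 in S1 to S3, and the cause was not tested.

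Marker lists moved in the Ikzf3 KO group as well, where 14.2% of all genes changed and 7.88% fell. The mature NK markers summed to 3634.9 to 6905.6 RPKM against 9724.1 to 11984.6 in Cre only libraries, and 3 of 8 fell and 2 rose. Of 12 NK identity markers 5 fell and none rose (summed RPKM 7024.8 to 19921.0 against 19879.2 to 25143.1). Of 9 markers of type 1 innate lymphoid cells 3 fell and none rose (52.6 to 150.6 against 168.9 to 427.1; median log2 change -1.24). The T cell markers overlapped the controls (534.2 to 693.6 against 472.3 to 711.7), with 1 of 10 higher and 2 lower. In Ikzf1 KO cells the mature markers (12903.3 to 15561.3) and those of type 1 innate lymphoid cells (483.3 to 554.5) summed to more than in any control. Of these lists 2 of 8 and 2 of 9 were called higher and 1 and none lower, where 6.32% of all genes changed. A sum weighs abundant genes most, and the median log2 change of the mature markers was 0.053. Itgam fell in Ikzf1 KO cells (log2 -1.61 ± 0.261, SE, adjusted p = 0.002). The part of these markers in the Ly49 values was not tested.

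The single knockouts differed from each other in 1 member, where 17.7% of all genes differed. Klra5 was 26.8, 26.2, 33.6 and 32.0 RPKM in Ikzf1 KO and 4.83 to 16.7 in Ikzf3 KO libraries (log2 1.47 ± 0.307, SE; adjusted p = 0.00562), with no overlap. It was the only member called, and the call was kept in all 26 settings. The difference was 0.38 ± 0.306 for Klra8 and 0.73 ± 0.349 for Klra9, which did not pass (adjusted p = 0.370 and 0.146).

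DKO cells were also compared with each single knockout, although Ikzf1 RNA was higher in DKO than in Ikzf1 KO cells. In DKO against Ikzf1 KO cells 4 members were lower and 1 higher of 9, where 7.48% of all genes changed. Klra8 was lower (log2 -2.25 ± 0.331, SE; adjusted p = 6.71e-04) and so was Klra5 (-2.08 ± 0.332; adjusted p = 0.00125), both without overlap. Klra9 (-1.62 ± 0.377; adjusted p = 0.0169) and Klra4 (-1.56 ± 0.422; adjusted p = 0.0364) were lower and Klra6 higher (1.99 ± 0.426; adjusted p = 0.00988). With S6 or S7 left out, 2 members passed. Klra4 had an adjusted p of 0.173 without S7 and 0.0948 without S6, and it also missed the threshold without S12, S13, S14 or S15 (adjusted p = 0.0540 to 0.0916 among these). For Klra6 the values were 0.0535 without S7 and 0.0744 without S6, and for Klra9 0.0558 and 0.0897.

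In DKO against Ikzf3 KO cells 2 members were lower and 1 higher, where 20.1% of all genes changed. These were Klra8 (log2 -1.87 ± 0.331, SE; adjusted p = 0.00127), Klra4 (-1.45 ± 0.422; adjusted p = 0.0269) and Klra6 (2.21 ± 0.426; adjusted p = 0.00232). The Klra8 and Klra6 calls were kept in all 26 settings. The Klra4 call was lost without S3, S4, S6 or S7 (adjusted p = 0.0541, 0.0518, 0.0580 and 0.137), and without both S3 and S4 its change was -0.88 (adjusted p = 0.130). Klra5 was at 4.03 to 9.15 RPKM in DKO and 4.83 to 16.7 in Ikzf3 KO libraries, which overlapped (log2 -0.61 ± 0.332; adjusted p = 0.201). Klra1 had a change of 1.23 ± 0.430, which did not pass (adjusted p = 0.0578).

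Over the 4 groups the order of the means differed by member. Klra8, Klra9 and Klra5 ran from Cre only down over Ikzf1 KO and Ikzf3 KO to DKO. For Klra8 only the last step, from Ikzf3 KO to DKO, passed between neighbours, and for Klra9 none did. For Klra5 the neighbours Cre only and Ikzf1 KO, and Ikzf3 KO and DKO, did not pass. Klra1 ran in the opposite order, and only its ends were told apart. Klra4 stood highest in Cre only, followed by Ikzf3 KO and Ikzf1 KO, which did not differ beyond their spread, and lowest in DKO cells. Klra3, Klra7 and Klra10 did not pass in any of the 7 comparisons. Klra6 was highest in DKO and Cre only cells, which did not differ beyond their spread, and lowest in both single knockouts, which did not either.

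Klra6 departed from the sum of the single deletions. The test asked whether the change in DKO cells differed from the sum of the changes in Ikzf1 KO and Ikzf3 KO cells on the log2 scale. It takes the deletions as equal in single and double knockouts, while Ikzf1 RNA was higher in DKO than in Ikzf1 KO cells. Klra6 was the only member called, 1 of 9, where 6.55% of all genes were called. Log2 changes of -1.59 in Ikzf1 KO and -1.804 in Ikzf3 KO cells would together place it at 0.963 RPKM in DKO cells, and it measured 9.32, 29.8 and 27.5. The departure was 3.79 ± 0.580 (SE; adjusted p = 0.00174), was kept in all 25 settings, and ran from 3.33 to 4.32 among them. Klra6 shared no 75-base window with another gene. Markers of other cells departed in the same direction, 6 of 10 T cell markers (median 1.93) and 4 of 9 of type 1 innate lymphoid cells (median 1.62). Of 11 immature NK markers 6 did so too (median 1.43). Within groups Cd3e and Klra6 were both lowest in S5 among DKO libraries and both highest in S13 and S14 among Ikzf1 KO libraries. Both were also higher in S16 and S17 than in S18 and S19. In Ikzf3 KO libraries they parted, with Klra6 highest in S4 (6.72 RPKM) and Cd3e highest in S1 (1.67 RPKM, against 1.33 in S4). The part of these markers in the departure was not tested. In Klra8 the measured DKO level was below the sum, 22.9 RPKM against 46.1 expected, a departure of -1.05 ± 0.451 that did not pass (adjusted p = 0.201). Klra4 had 116 RPKM measured and 192.0 expected (departure -0.87 ± 0.575; adjusted p = 0.407), and Klra5 was close to its sum (-0.18 ± 0.452; adjusted p = 0.840).

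**Figure D4:**
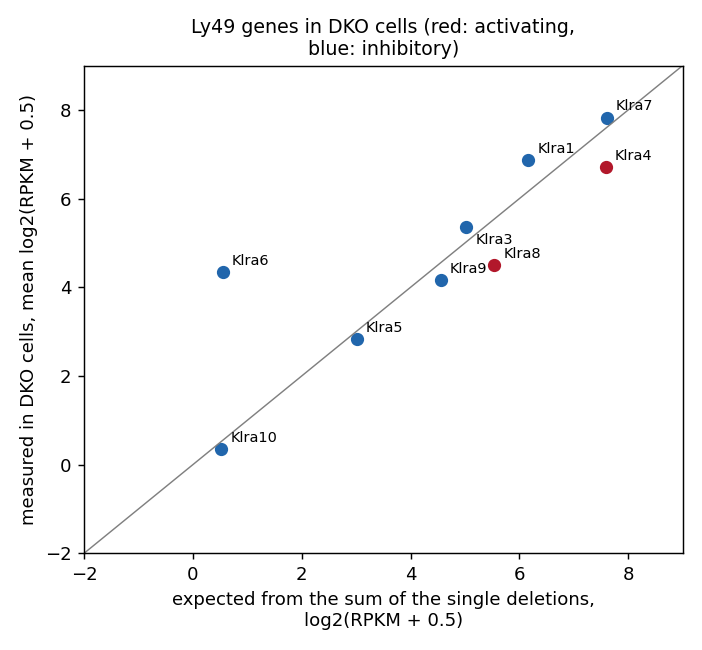
Mean log2(RPKM + 0.5) of each Ly49 gene in DKO cells (vertical) against the value expected from adding the changes of the single deletions (horizontal), with the line of equality. Klra6 lies 3.79 above the line, and the other 8 genes lie within 1.05 of it.

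The promoters are shown for 4 genes with different patterns: both activating genes, Klra4 and Klra8, which fell in DKO cells, Klra1, which rose, and Klra6, which departed from additivity. Each runs from 250 bases before to 50 bases after the RefSeq start site (build GRCm38.p6, the same assembly as mm10), 5′ to 3′ along the gene. Capitals mark TTCCC, the reverse complement of GGGAA, the core letters bound by Ikaros family proteins.
Klra4, chr6:130067222-130067521, minus strand: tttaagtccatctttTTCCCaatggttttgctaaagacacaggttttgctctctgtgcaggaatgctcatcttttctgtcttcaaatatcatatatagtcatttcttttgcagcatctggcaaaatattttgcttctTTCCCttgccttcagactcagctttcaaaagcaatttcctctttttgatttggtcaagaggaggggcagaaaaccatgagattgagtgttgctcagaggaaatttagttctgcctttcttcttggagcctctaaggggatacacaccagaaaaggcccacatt
Klra8, chr6:130129786-130130085, minus strand: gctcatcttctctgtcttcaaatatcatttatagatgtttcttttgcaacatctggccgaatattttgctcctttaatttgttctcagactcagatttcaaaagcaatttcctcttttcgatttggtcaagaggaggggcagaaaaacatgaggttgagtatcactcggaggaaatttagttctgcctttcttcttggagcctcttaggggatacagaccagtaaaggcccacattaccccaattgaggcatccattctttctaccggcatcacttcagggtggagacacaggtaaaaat
Klra1, chr6:130386825-130387124, minus strand: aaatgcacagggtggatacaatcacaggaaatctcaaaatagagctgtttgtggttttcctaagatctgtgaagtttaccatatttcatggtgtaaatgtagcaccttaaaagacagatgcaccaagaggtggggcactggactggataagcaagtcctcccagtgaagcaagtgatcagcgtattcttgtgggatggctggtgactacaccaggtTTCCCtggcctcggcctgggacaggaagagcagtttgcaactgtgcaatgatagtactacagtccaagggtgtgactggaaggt
Klra6, chr6:130026905-130027204, minus strand: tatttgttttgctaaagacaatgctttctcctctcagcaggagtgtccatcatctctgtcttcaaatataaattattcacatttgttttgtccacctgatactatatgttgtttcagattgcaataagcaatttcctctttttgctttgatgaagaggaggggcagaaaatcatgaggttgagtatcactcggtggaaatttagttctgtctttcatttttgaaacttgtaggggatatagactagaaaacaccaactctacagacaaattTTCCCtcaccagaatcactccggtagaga

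Klra4 and Klra8 shared a run of 37 identical bases in these windows, Klra6 and Klra8 one of 22 and Klra4 and Klra6 one of 19. The Klra1 window shared no run longer than 9 bases with any of the other 3. Searched on both strands, GGGAA occurred in the printed promoter of Klra4 (2 matches), Klra1 and Klra6 (1 each) and in neither of the 2 entries of Klra8, of which 1 is printed. Over all RefSeq promoters of the 9 members, 7 of 11 (63.6%) held it, against 62.7% of 32851 promoters of the genome. CTTTGA, a letter string of TCF factors such as the one encoded by Tcf7, was in 3 of 11 (27.3%, 16% of all). These were the entry of Klra6 and both entries of Klra7, and the Klra1 entry held none. TGTGGT, the RUNX core, was in 1 (9.1%; 16.8% of all), Klra1, and TGANTCA, the AP-1 letters, in none (7.8% of all). A match of letters is a description of the window.

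Genes of the same pathway were read from lists. Activating Ly49 signalling runs from DAP12 (gene Tyrobp) through Syk-type kinases to phospholipase C, and its list also holds the adaptor DAP10 (gene Hcst). In DKO against Cre only cells 2 of 23 tested genes of this list rose, 9 fell and 12 did not pass. Among all genes 18.7% changed and 10.6% fell. The median was -0.46 for the list and -0.00077 for all genes. Tyrobp itself measured 1036, 1122, 1308 and 1068 RPKM in Cre only libraries and 343.1, 220.1 and 255.4 in DKO libraries, far below all controls (log2 -2.07 ± 0.262, SE; adjusted p = 7.81e-05). Lat2, an adaptor related to Lat, fell by 1.92 ± 0.209 (adjusted p = 2.20e-05), Sh2d1b1, which encodes EAT-2, by 1.71 ± 0.223 (adjusted p = 1.05e-04) and the kinase gene Fyn by 0.72 ± 0.116 (adjusted p = 6.31e-04). Hcst (-0.66 ± 0.250) and Syk (-0.31 ± 0.310) did not pass (adjusted p = 0.0808 and 0.533).

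In the single knockouts the same list of 23 tested genes had 1 higher and 2 lower in Ikzf1 KO cells, and 2 higher and 7 lower in Ikzf3 KO cells. Among all genes 6.32% and 14.2% changed in these comparisons. Tyrobp was at 627 to 731 RPKM in Ikzf1 KO cells, below the controls without passing (log2 -0.78 ± 0.243; adjusted p = 0.0717). It was at 647.2, 886.2, 1102 and 1773 RPKM in S1 to S4 of Ikzf3 KO (log2 -0.13 ± 0.243; adjusted p = 0.720), lowest in S1 and highest in S4 as Klra4 and Klra8 were. Inpp5d, which encodes the phosphatase SHIP-1 that inhibitory receptors recruit, fell in DKO and Ikzf3 KO cells (-1.03 ± 0.22 and -0.998 ± 0.204; adjusted p = 0.00514 and 0.00690). Ptpn6, which encodes the ITIM-binding phosphatase SHP-1, rose in DKO cells (0.76 ± 0.182; adjusted p = 0.00993). The other 3 of the 5 genes of that list did not pass in DKO cells.

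The list for the class I MHC ligands of Ly49 receptors held heavy chains, B2m and also Tap1 and Tap2, which encode no ligand. Of its 9 genes tested 2 fell in DKO cells, H2-K1 and H2-T23 (10.6% of all genes fell). In Ikzf3 KO cells 3 fell, H2-K1, H2-Q4 and Tap2 (7.88% of all), and none rose in either comparison. Counts of this size in a short list are given as a description. H2-K1 had 971.7 ± 33.5 RPKM in DKO, 844.1 ± 70.4 in Ikzf3 KO and 1464 ± 148.6 in Cre only cells (SD, n = 3, 4 and 4; log2 -0.59 ± 0.130 and -0.79 ± 0.120, SE; adjusted p = 0.00607 and 0.00105). Of the other lectin receptor genes of the same gene complex 3 of 17 tested were called in DKO cells, near the 18.7% of all genes. Klrc1 rose (NKG2A; log2 1.71 ± 0.406; adjusted p = 0.00957), and Cd69 and Klrb1 fell (log2 -1.28 ± 0.278 and -0.77 ± 0.222; adjusted p = 0.00551 and 0.0261). Of 21 transcription factors with roles in NK development or Ly49 expression 3 rose and 5 fell, where 18.7% of all genes changed. Tcf7, which encodes the factor TCF-1 known to act on Ly49A, rose (log2 1.82 ± 0.391; adjusted p = 0.00513), with 190.3, 115.4 and 115.2 RPKM in S5 to S7 against 26.5 to 50.1 in the controls. S5, with the most Tcf7, had the least Klra1 of the 3 DKO libraries. Klf2, which encodes a factor of lymphocyte quiescence, rose in DKO, Ikzf1 KO and Ikzf3 KO cells alike (1.72 ± 0.279, 1.36 ± 0.258 and 1.39 ± 0.258; adjusted p = 6.64e-04, 0.00588 and 0.00390). These 3 comparisons share the Cre only libraries.

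Across the 15 libraries the members fell into patterns, described here by Pearson's r of log2(RPKM + 0.5) without a test, since the libraries share groups and depth. Klra4 and Klra8 ran most closely together (r = 0.95, and 0.92 after group means were removed), ahead of Klra8 and Klra9 (0.92 and 0.80). Klra1 ran against Klra8 (-0.63), but within groups it did not (0.29). Klra5 followed Klra8 between groups (0.72) and not within them (-0.36).

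Outside the family, among 6354 genes with a mean of at least 5 RPKM, the gene most like Klra4 was Tyrobp (r = 0.87, n = 15 libraries), the adaptor gene of its own receptor. It was followed by Sdf4 (0.87), Ccm2 (0.852), Itgax (0.849) and Fcgr3 (0.844). Most like Klra7 were Ptpn18 (0.911), Glipr2 (0.895), Zfp429 (0.886), Hopx (0.877) and Zdhhc20 (0.875). The mean of the 9 members was followed by Il10rb (0.934), Gimap7 (0.853), AW112010 (0.839), Amz2 (0.835) and Fyn (0.832).

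**Figure D5:**
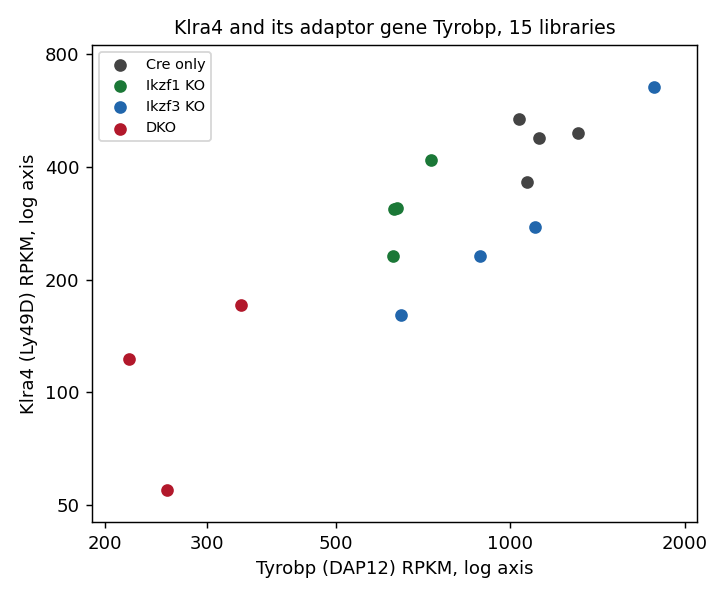
Klra4 RPKM against Tyrobp RPKM in the 15 libraries, both on log axes, coloured by group. The 3 DKO libraries lie at the lower left (Tyrobp 220.1 to 343.1, Klra4 54.8 to 171) and the Ikzf3 KO library S4 is the highest in both genes (1773 and 655).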

How the data were processed

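Libraries of polyadenylated RNA were made with a stranded kit from RNA with an integrity number above 7.0 and read as single ends of 75 bp, per the labels' protocols. STAR, featureCounts, limma 3.34.9 and the build mm10 are named without settings in the submitters' processing notes. The authors deposited RPKM values for 11736 genes in 15 columns. Column names give the genotype, not the culture, and only the cultured groups have matching sizes. The 6 directly sorted samples were not analysed here.

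A gene was kept where 3 or more libraries had an RPKM of 1 or above (10032 genes, all 9 members among them). Values were fitted as log2(RPKM + 0.5) by limma 3.58.1 under R 4.3.3 with all 15 libraries together, a mean for each group, a mean-variance trend and robust moderation. This left 11 residual degrees of freedom. Tests of 7 contrasts were 2-sided, with Benjamini-Hochberg adjustment over all genes. The fit was tested on simulated data. Values are mean ± SD and log2 change ± SE.

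Reads were recovered from the steps between values with GENCODE mouse release M21 exon lengths: 11291 genes (96.2%) came out whole within 0.02 read. Libraries of a group differed by more than sampling noise (chi-square per degree of freedom 3.56 to 242.25 over 21 pairs). Members and lists were chosen with earlier results of these data known. Named genes are all members, for each list the genes of smallest adjusted p (up to 4 a comparison), and the 5 genes most like a pattern; Hcst, Syk, Ncr1, Klrb1c, Klrk1, Cd14 and Cma1 were added after their values were seen. Alternatives changed the pseudocount, filter, samples in the fit, array weights, scaling and libraries left out.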

Additional observations from a re-analysis of the deposited data

Results flagged for a closer look

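Klra6 in the Ikzf3 KO library S4 was 6.72 RPKM, apart from 3.16 to 3.32 RPKM in the other 3 libraries of its group. The gap to its neighbour was 0.956 of the range of the group. It was the only such value among 27 sets of 4 libraries examined, and chance flags about 1 in 20. Without S4 the fall of Klra6 in Ikzf3 KO cells stayed past the threshold.

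Klra6 also responded differently to the loss of Ikaros depending on whether Aiolos was present, with an interaction of 3.79 on the log2 scale (adjusted p = 0.00174, limma). It was lower in all 4 Ikzf1 KO libraries than in all 4 Cre only libraries, and higher in all 3 DKO libraries than in all 4 Ikzf3 KO libraries.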

How the results depend on the processing

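Of 20 member calls, 11 were kept in every setting tried and all 20 kept their sign. Of 43 uncalled values, 14 passed in at least 1 setting. The number of members called in Ikzf1 KO against Cre only (1) became 5 when only those groups were fitted, 6 with array weights (whose iterations stopped early in limma), 3 when S3 and S4 were left out, 0 when S16 and S17 were, and 2 with a term for the set S5, S15, S18 and S19. Leaving out 1 library gave 0 to 2. In Ikzf3 KO against Cre only (4) it became 2 with only those groups, 2 when S16 and S17 were left out and 2 when S18 and S19 were, and leaving out 1 library gave 2 to 4. DKO against Ikzf1 KO (5) gave 2 to 6 with 1 library left out. Ikzf1 KO against Ikzf3 KO (1) became 4 with array weights and 3 without S3 and S4, and gave 1 to 2 with 1 library left out. Calls over all genes moved with the setting too. In Ikzf1 KO against Cre only they were 634 of 10032, and 366 of 9978 without S16 and S17. They were 1927 of 9527 with only those groups and 3746 of 10032 with array weights. In Ikzf1 KO against Ikzf3 KO they fell from 1775 of 10032 to 1107 of 9876 without S3 and S4, where the members called rose. The causes were not tested. DKO against Cre only gave 4 to 5 over the libraries left out and DKO against Ikzf3 KO 2 to 4. Another pseudocount, filter or scaling moved none of the 7 counts by over 1.5 times. No paired analysis was possible because the columns carry no replicate numbers. Depth limits Klra10 (5 to 57 reads per library) and, in the single knockouts, Klra6 (31 to 113 reads).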
